A study of Rattus norvegicus with 6 samples.

Results

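Tumour necrosis factor (Tnf), interleukin-6 (Il6), interleukin-17A (Il17a) and interleukin-10 (Il10) and the receptor chains that bind or relay them were examined as 10 genes in RNA sequencing of rat subchondral bone. The genes were chosen by name: 4 ligands (Tnf, Il6, Il17a, Il10) and 6 receptor chains (Tnfrsf1a, Tnfrsf1b, Il6r, Il6st, Il17ra, Il10ra). Their Ensembl IDs are ENSRNOG00000055156 for Tnf, ENSRNOG00000010278 for Il6, ENSRNOG00000012467 for Il17a and ENSRNOG00000004647 for Il10. Those of the receptors are ENSRNOG00000031312 for Tnfrsf1a, ENSRNOG00000016575 for Tnfrsf1b, ENSRNOG00000020811 for Il6r, ENSRNOG00000013963 for Il6st, ENSRNOG00000011153 for Il17ra and ENSRNOG00000016308 for Il10ra. All 10 had a row, each only 1, among 30600 rows with values, of which 22050 are annotated rat genes. The 6 libraries (S10, S12, S13, S20, S21, S23) were made with an mRNA library kit from total RNA of the bone that lies under the cartilage of the knee. The series set rats kept cold against rats kept at normal temperature, but its labels give no temperature, age, sex or strain for any library. No library was therefore placed in a group, no effect of cold was tested, and each value is shown for its library or summarised by range and median. The labels do not say how many animals the libraries represent.

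TNF is made mainly by activated macrophages and T cells and acts through a widely expressed receptor (TNFR1, encoded by Tnfrsf1a) and a receptor mostly of blood and endothelial cells (TNFR2, encoded by Tnfrsf1b). IL-6 binds its own receptor chain (Il6r), and the pair then engages gp130 (Il6st), the chain that signals for the whole IL-6 family. IL-17A, a product of T helper 17 and gamma-delta T cells, signals through receptors that share the chain encoded by Il17ra, and IL-10, which restrains inflammation, binds the chain encoded by Il10ra. In joints, TNF, IL-6 and IL-17A are known as drivers of inflammatory bone loss and cartilage damage.

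Libraries differed before any of these genes was considered. Total counts were 39990624 to 59200981 per library. Levels are in FPKM, fragments per kilobase of gene model adjusted for sequencing depth. Over the 11625 annotated genes whose median reached 1 FPKM, the median deviation of log2(FPKM + 1) from each gene's own median was -0.31 in S10 and 0.14 in S12, and between -0.03 and 0.06 in the other libraries. With TMM factors, which are computed from the counts and equalise the bulk of genes, it lay between -0.02 and 0.02 in every library. Bone and cartilage markers were present: all 5 osteoblast markers and 4 of 5 chondrocyte markers reached a median of 1 FPKM. So did all 7 neutrophil markers and all 4 skeletal muscle markers with a row. The summed neutrophil markers ranged from 14999 FPKM in S20 to 70247 FPKM in S23, and the summed muscle markers from 12.2 FPKM in S20 to 107 FPKM in S12. In whole tissue, fewer cells of a type and less RNA per cell cannot be told apart.

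Receptor chains other than Il6st were well expressed in the bone, whereas the ligands were scarce. The median reached 1 FPKM for all 6 receptor genes and for none of the 4 ligand genes, and for 11625 of all 22050 annotated genes. Il6st, the lowest of the receptor genes, was above 21.3% of those 11625 genes by median FPKM and had 0.654 FPKM in S10. Il17ra was the most abundant member, above 97.6% of the 22050 annotated genes by median FPKM, while Il17a was at 0 counts in 5 of 6 libraries. The 6 receptor genes together held 23110 to 54532 counts per library, and the 4 ligand genes 39 to 148. In FPKM, the ligand sum was highest in S23, at 2.51 against a receptor sum of 304, and lowest in S12, at 0.481 against 246. The receptor sum was thus 121 times the ligand sum in S23 and 510 times in S12, with the other libraries in between.

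**Figure D1:**
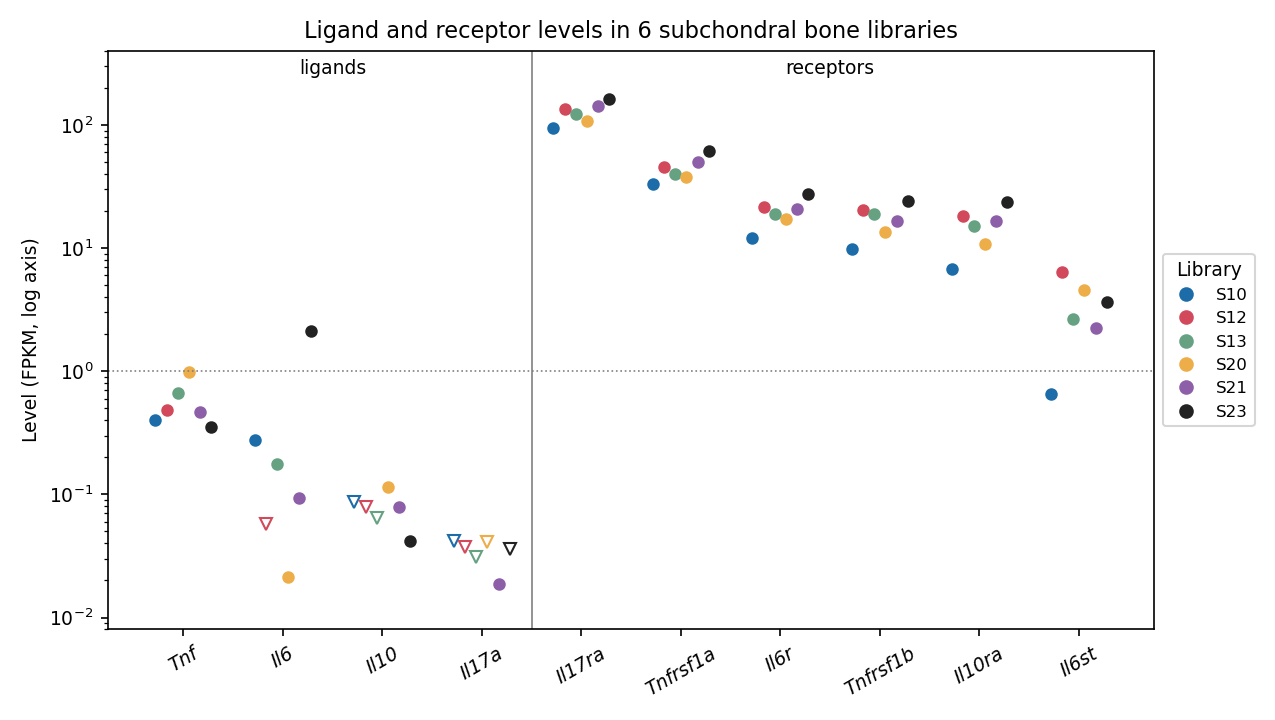
Level of each gene in each library in FPKM on a log axis, ligands on the left and receptors on the right; filled points are measured values and open triangles stand at the level that 3 counts would give in libraries with 0 counts. The dotted line is 1 FPKM: all Il17ra points lie between 93.6 and 163 FPKM, and Il6 in S23 is the only ligand value above 1 FPKM.

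Il6 and Tnf, the ligands with the most counts, differed in S23, where Il6 was highest and Tnf lowest in the deposited values, and the 250 bases before their transcription starts are shown for that reason. Sequences are from RefSeq (build GRCr8), 5′ to 3′ on the strand of the gene. Capitals mark matches, on either strand, to 4 motifs: NF-kappaB (GGG and TTCC with 3 bases of any kind between them), STAT (TTCNNNGAA), AP-1 (TGANTCA) and C/EBP (TTNNGCAA), or to the TATA box (TATAAA), which was added after the sequences were seen.
Il6, chr4:5894576-5894825, minus strand: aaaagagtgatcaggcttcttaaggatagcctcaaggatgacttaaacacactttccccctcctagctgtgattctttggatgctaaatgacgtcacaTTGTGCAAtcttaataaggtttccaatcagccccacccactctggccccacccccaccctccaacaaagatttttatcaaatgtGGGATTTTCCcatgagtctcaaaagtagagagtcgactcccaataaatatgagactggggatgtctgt
Tnf, chr20:3626435-3626684, plus strand: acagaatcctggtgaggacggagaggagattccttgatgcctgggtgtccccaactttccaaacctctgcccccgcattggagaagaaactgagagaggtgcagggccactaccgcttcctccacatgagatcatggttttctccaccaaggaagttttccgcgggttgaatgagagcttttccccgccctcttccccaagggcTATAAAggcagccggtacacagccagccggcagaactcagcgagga

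The Il6 window holds an NF-kappaB match at positions -68 to -59 from the start and a C/EBP match at -152 to -145, and the Tnf window holds a TATA match at -46 to -41. Of 33469 such windows in the table, 4.53% hold the NF-kappaB letters, 9.22% the C/EBP letters and 12.9% the TATA letters on at least 1 strand. The Il17a window has a TATA match as well, and that of Tnfrsf1b an AP-1 match, which 6.34% of windows have. The windows of Tnfrsf1a and Il10ra hold none of the 5 motifs. A match in letters is not a measured binding site. Those of Il6r and Il6st do not end at the annotated gene start and are not read here, and Il17ra and Il10 were not looked up elsewhere.

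Tnf, the ligand with counts in every library, stayed under 1 FPKM. It had 0.978 FPKM in S20 (74 counts), 0.660 in S13 (66 counts), 0.481 in S12 (39 counts), 0.463 in S21 (51 counts), 0.404 in S10 (30 counts) and 0.351 in S23 (31 counts). The highest level, in S20, was 2.78 times the lowest, in S23. With TMM factors S20 was still highest and S23 lowest, at 0.872 and 0.318 FPKM, but with every library brought to the same FPKM sum S10 was lowest, at 0.343 against 0.381 in S23. A count of 31 has an exact 95% Poisson interval of 21.1 to 44.0, and one of 74 an interval of 58.1 to 92.9, which cover counting error only, here and below.

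Il6 was near the limit of detection in 5 libraries and clearly present in S23. It had 115 counts (2.11 FPKM) in S23, against 13 counts (0.278 FPKM) in S10, 11 (0.178 FPKM) in S13, 7 (0.0941 FPKM) in S21, 2 (0.0214 FPKM) in S20 and 0 in S12. Relative to total counts, S23 stood 7.65 times above S10, the next highest library, with an exact 95% counting interval of 4.30 to 14.8. Over S13 the ratio was 12.2 (6.57 to 25.1), over S20 it was 50.6 (13.7 to 423), and over S21 the interval ran from 9.88 to 53.4. Over S12, with 0 counts, the exact interval began at 29.3, and the level measured in S23 was 36.6 times the one that 3 counts would give in S12. Without S23, whose temperature group is unknown, the highest value was 0.278 FPKM. At very low counts the deposited FPKM did not always follow the count: the transcript length implied by both values was 1145 to 1257 bases in S10, S13, S21 and S23 and 2290 bases in S20.

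Il10 and Il17a were at or close to 0. Il10 had 4 counts in S20, 4 in S21 and 2 in S23, or 0.114, 0.0795 and 0.0416 FPKM, and 0 counts in S10, S12 and S13. A count of 0 allows a level of up to 0.0870 FPKM in S10, 0.0787 in S12 and 0.0644 in S13, so Il10 cannot be ranked between libraries at this depth. Il17a had 2 counts in S21 (0.0187 FPKM), and the 0 counts of the other libraries allow up to 0.0307 FPKM in S13 and 0.0415 FPKM in S10, where the limits were lowest and highest. Genes that mark the cells known to make IL-17A were low too. Il23r, a chain of the IL-23 receptor, had 0 to 6 counts per library, and Il17f 0 in all 6. Ccr6, also carried by B cells, was the highest marker of that list, with 102 counts in S12 and a median of 0.367 FPKM. The part of such cells in the Il17a counts was not tested. Markers of T cells at large were measured clearly, with all 6 at a median of 1 FPKM or more. Cd3e, a chain of the T cell receptor complex, had 1.95 FPKM in S23 and 4.70 FPKM in S10.

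Il17ra was the highest receptor gene in every library. It had 163 FPKM in S23, 143 in S21, 134 in S12, 122 in S13, 107 in S20 and 93.6 in S10, from 15664 to 35660 counts. It made up 53.7% (S23) to 59.9% (S10) of the summed receptor FPKM. Its range did not overlap with that of Tnfrsf1a, the next gene in the order.

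Tnfrsf1a had 61.9 FPKM in S23, 50.4 in S21, 45.6 in S12, 40.2 in S13, 37.5 in S20 and 33.2 in S10. Tnfrsf1b had 24.0 FPKM in S23, 20.5 in S12, 18.9 in S13, 16.5 in S21, 13.5 in S20 and 9.89 in S10. TNFR1 transcripts thus exceeded those of TNFR2 in all 6 libraries, by 2.13-fold in S13 to 3.35-fold in S10. The 95% counting intervals of these ratios, 2.04 to 2.23 and 3.14 to 3.58, do not overlap. In the reference annotation Tnfrsf1b overlaps LOC103692519, Il6r overlaps She and Il6st overlaps a long noncoding RNA, and the strand setting of the authors' counting is not given, so reads of such pairs could be assigned to either gene. She had at most 3.36 FPKM.

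Il6r and Il6st, the chains of the IL-6 receptor, behaved differently. Il6r had 27.7 FPKM in S23, 21.4 in S12, 20.7 in S21, 18.8 in S13, 17.1 in S20 and 12.2 in S10. Il6st was far lower, with 6.35 FPKM in S12, 4.60 in S20, 3.63 in S23, 2.64 in S13, 2.26 in S21 and 0.654 in S10. The IL-6-specific chain therefore exceeded the shared signalling chain in all 6 libraries. Il6r was 18.6 times Il6st in S10 (95% counting interval 15.0 to 23.2), 9.18 times in S21 (8.34 to 10.1) and 7.64 times in S23 (7.02 to 8.33). In S13 it was 7.11 times (6.48 to 7.82), in S20 3.72 times (3.42 to 4.06) and in S12 3.36 times (3.13 to 3.61). The ratio was lowest in S12 and S20, the libraries with the highest Il6st. Fibroblast markers summed to 200 FPKM in S12, 193 in S23, 187 in S20 and 128 in S10. Endothelial markers summed to 35.1 FPKM in S20, 34.5 in S12, 31.4 in S23 and 25.6 in S10. With TMM factors the fibroblast sum was 172 FPKM in S10 and 167 in S20. The endothelial sum so scaled was highest in S10, at 34.5 FPKM, while Il6st stayed lowest there, at 0.879 FPKM. Most of the endothelial sum in S10 was Egfl7, which was highest there as deposited, at 15.7 FPKM. Cdh5, Tie1 and Kdr were instead lowest in S10 as deposited, as Il6st and 60.1% of all expressed genes were. Skeletal muscle and adipocyte markers were high in S12 (107 and 406 FPKM) but not in S20 (12.2 and 82.5 FPKM). The part of these cells in the Il6st level was not tested. By contrast, the ratio of Il17ra to Tnfrsf1a kept between 2.64 (S23) and 3.03 (S13) in all 6 libraries. A ratio within a library does not change when each library is scaled by a single factor. It can change when each library's median deviation in 20 bins of gene length is removed. In S10 this moved log2(FPKM + 1) from 3.72 to 4.31 for Il6r and from 0.73 to 1.21 for Il6st.

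**Figure D2:**
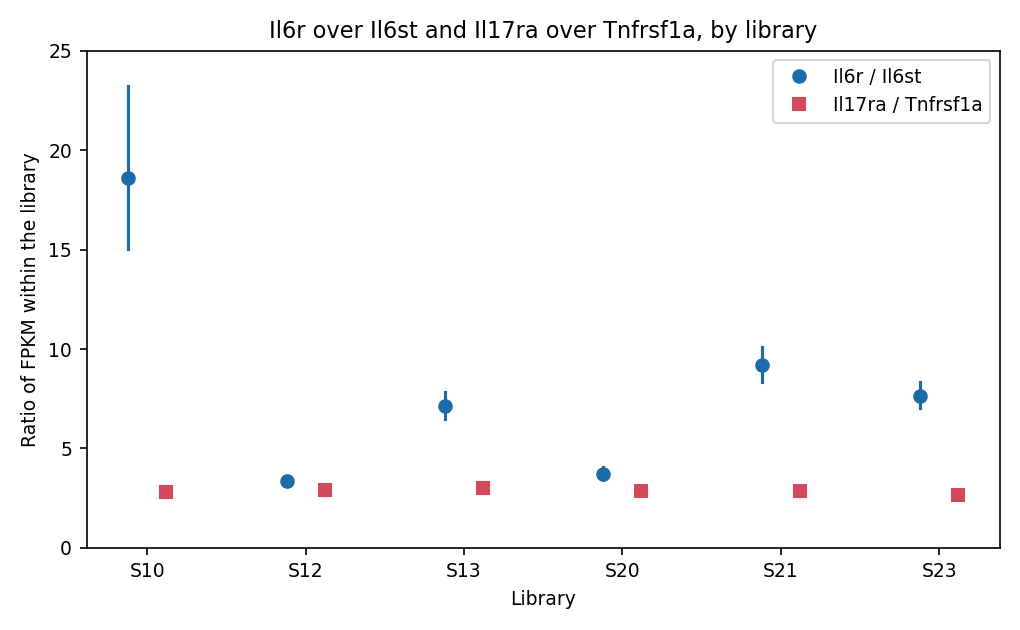
Ratio of FPKM within each library for Il6r over Il6st (blue circles) and Il17ra over Tnfrsf1a (red squares), with exact 95% counting intervals as bars. The first ratio runs from 3.36 in S12 to 18.6 in S10, while the second stays between 2.64 and 3.03.

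Il10ra had 23.5 FPKM in S23, 18.4 in S12, 16.7 in S21, 15.1 in S13, 10.8 in S20 and 6.78 in S10. By median, the receptor order was Il17ra (128 FPKM), Tnfrsf1a (42.9), Il6r (19.7), Tnfrsf1b (17.7), Il10ra (15.9) and Il6st (3.13). The ranges of Il6r, Tnfrsf1b and Il10ra overlapped, but within libraries Il6r exceeded Il10ra in 6 of 6. The place of Tnfrsf1b varied: Il6r exceeded it in 5 of 6 libraries, and it exceeded Il10ra in 5 of 6. Il6st was the lowest receptor gene in every library, and its range did not overlap with that of Il10ra. Among the ligands the median order was Tnf (0.472 FPKM), Il6 (0.136), Il10 (0.0208) and Il17a (listed at 0), and Il6 exceeded Tnf in S23 alone.

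Ligand and receptor were next compared within each library, over 6 pairs and 6 libraries. The ligand was below its receptor in all 36 combinations, and the upper bound of the counting interval, or of the limit set by 3 counts where the ligand had none, was below 1 in all 36. Tnf was 0.00568 of Tnfrsf1a in S23 and 0.0261 in S20, and 0.0146 of Tnfrsf1b in S23 and 0.0725 in S20. Both ratios were thus lowest where the receptor was highest and highest where Tnf was highest.

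For the IL-6 pair the library mattered most. Il6 was 0.0763 of Il6r in S23 (95% counting interval 0.0629 to 0.0917) and 0.0228 in S10 (0.0121 to 0.0391), and 0.00125 in S20 (0.000151 to 0.00452). Against Il6st the ligand came closest to its receptor of any pair, at 0.583 in S23 (0.473 to 0.713) and 0.425 in S10 (0.218 to 0.764). In S10 the ratio rests on 13 counts of Il6 and only 89 of Il6st. Il17ra was 2254 times the level that 3 counts of Il17a would give in S10, and 4549 times in S23, where Il17a had 0 counts. In S21, with 2 counts of Il17a, the ratio of ligand to receptor was 0.000131 (1.58e-05 to 0.000472). Il10ra was 78.0 times the level that 3 counts of Il10 would give in S10, 233 times in S12 and 235 times in S13. Il10 was 0.0105 of Il10ra in S20 (0.00287 to 0.0271).

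**Figure D3:**
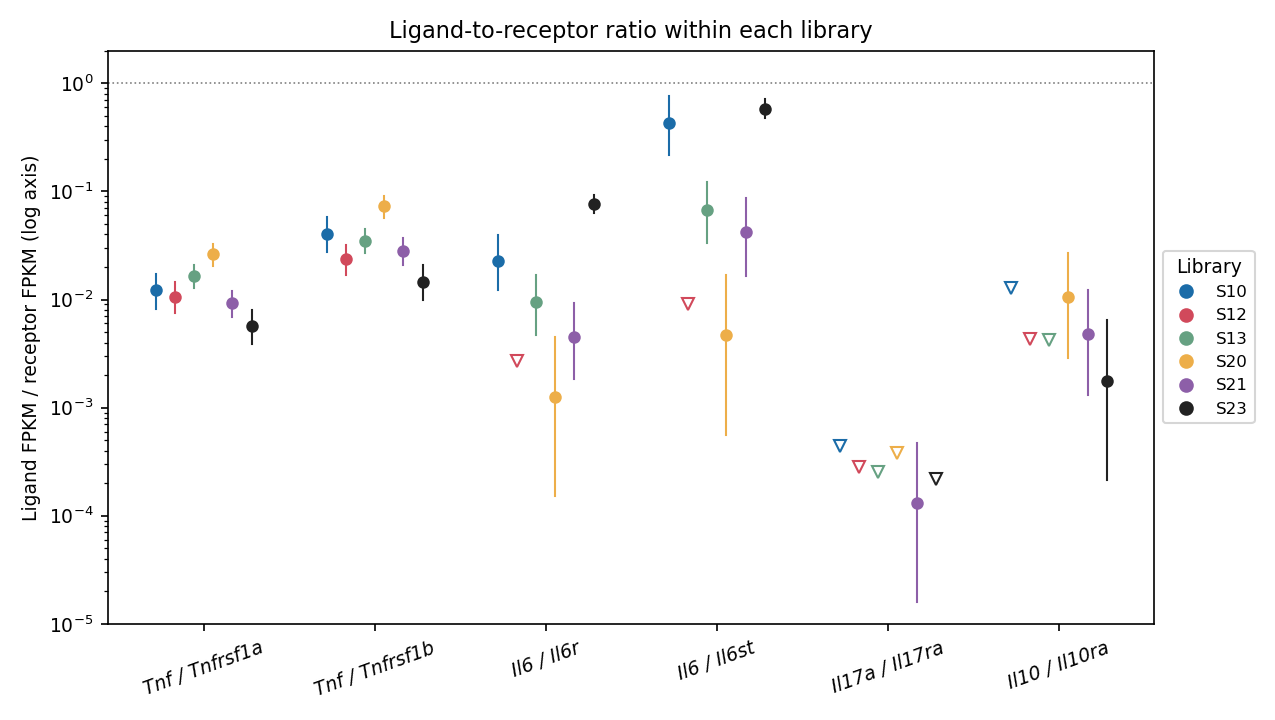
Ligand FPKM over receptor FPKM within each library on a log axis for 6 pairs; bars are exact 95% counting intervals and open triangles stand at the ratio that 3 ligand counts would give where none were found. Every point lies below the dotted line at 1, and the highest is Il6 over Il6st in S23, at 0.583.

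Over the libraries, 5 of the 6 receptor genes shared their highest library. Il17ra, Tnfrsf1a, Tnfrsf1b, Il6r and Il10ra were highest in S23, as were 24.0% of the 11625 expressed genes. Il6 was also highest there, and Il6st was highest in S12, as were 26.6% of those genes. With TMM factors the same 5 receptor genes were highest in S23, against 14.0% of expressed genes so scaled, and Il6st again in S12 (15.9%). Without S23, 4 of the 6 (Il6r, Tnfrsf1b, Il10ra and Il6st) were highest in S12 and the other 2 in S21. All 6 receptor genes were lowest in S10 in the deposited values, as were 60.1% of all genes. With TMM factors 2 of the 6, Il6st and Il10ra, were lowest in S10 (30.3% of all genes) and the other 4 in S20 (26.8%). The low end of most receptor genes thus moved with the scaling, while the high end did not.

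**Figure D4:**
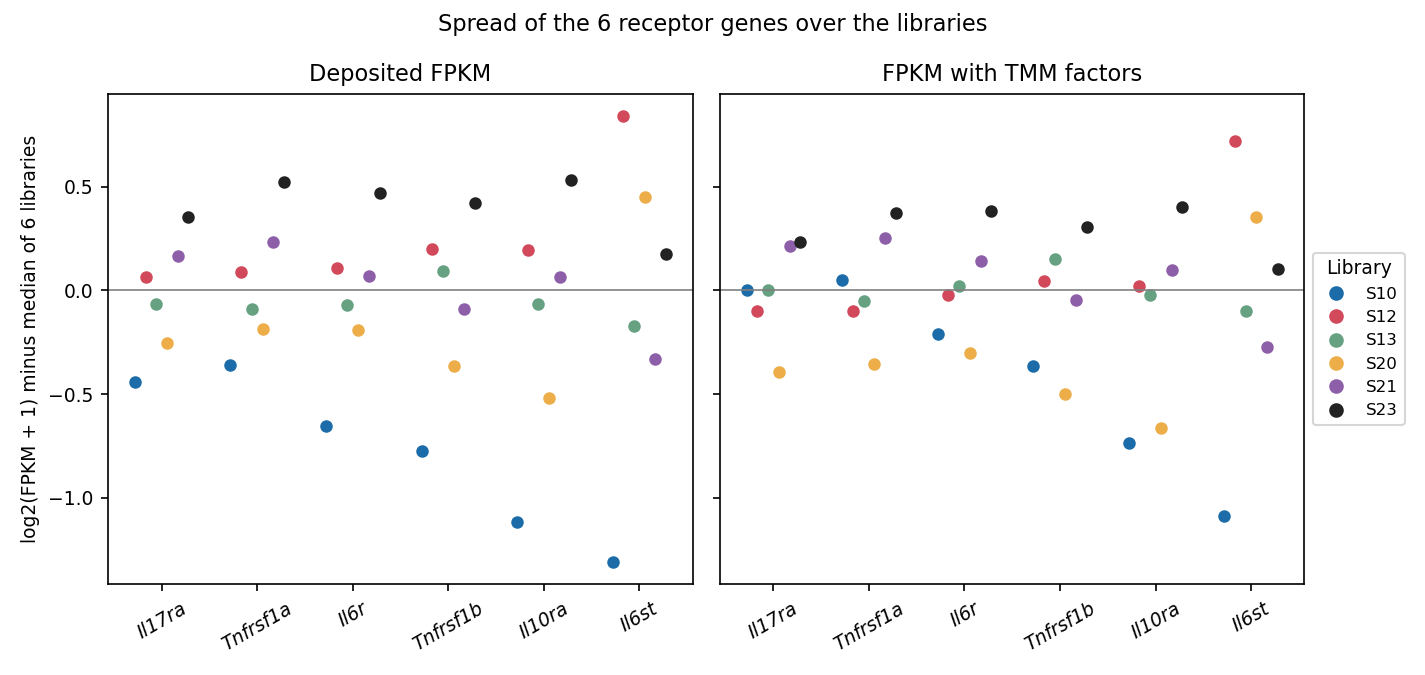
Deviation of log2(FPKM + 1) from the gene's median over the 6 libraries for each receptor gene, as deposited (left) and with TMM factors (right). S23 is the highest library for all receptor genes except Il6st in both panels, while the lowest changes from S10 to S20 for Il17ra, Tnfrsf1a, Il6r and Tnfrsf1b.

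Ranges over the libraries were moderate for most receptor genes. On the log2(FPKM + 1) scale the range was 0.80 for Il17ra, 0.88 for Tnfrsf1a, 1.13 for Il6r, 1.20 for Tnfrsf1b, 1.65 for Il10ra and 2.15 for Il6st. Thus 4 of 6 had a range of at least 1, against 36.6% of all 11625 genes, and the median range was 1.16 for the 6 receptor genes and 0.83 for all genes. With TMM factors 2 of 6 remained at or above 1, Il6st at 1.81 and Il10ra at 1.14, against 29.6% of all genes, and the medians were 0.77 and 0.73. With every library brought to the same FPKM sum, all 6 receptor genes had a range of at least 1, from 1.15 for Il17ra to 2.32 for Il6st, against 51.4% of all genes. For the 4 receptor genes below 1 with TMM factors the range was 0.63 to 0.80. Without S10 the deposited ranges were 0.66 for Il6r, 0.79 for Tnfrsf1b, 1.05 for Il10ra and 1.17 for Il6st. The range of Il6st was 1.45 after each library's median deviation in 20 bins of gene length was removed.

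Markers of neutrophils were also highest in S23. All 7 neutrophil markers were highest in that library (6 with TMM factors). Their sums were 70247 FPKM in S23, 40728 in S10, 40504 in S21, 37703 in S13, 19348 in S12 and 14999 in S20. Most of each sum was S100a8 and S100a9, with 25798 and 37587 FPKM in S23, so the order of the sums is largely theirs. Csf3r, Cxcr2 and Mmp8 were lowest in S10, while the other markers were lowest in S20. Csf3r had 11.3 FPKM in S10 and 35.1 in S12, and Cxcr2 had 12.5 and 43.3. Monocyte and macrophage markers summed to 15681 FPKM in S23 and 4009 FPKM in S20, with 3 of the 6 highest in S23, but nearly all of that sum was Lyz2, which neutrophils also express. Without Lyz2 the other 5 summed to 282 FPKM in S23, with 350 FPKM in S12, 304 FPKM in S10 and 241 FPKM in S20. C1qa was the largest part of that sum, with 225 FPKM in S10, 202 in S12 and 125 in S23, its lowest. The others were split: Cd68 and Cd14 were highest in S23, at 87.1 and 22.2 FPKM, and Csf1r and Adgre1 in S12. With TMM factors the neutrophil sum kept its lowest value in S20 and its highest in S23, while the macrophage sum without Lyz2 was highest in S10, at 409 FPKM. That place rests on C1qa, which was highest in S10 as deposited. Cd68, Cd14, Csf1r and Adgre1 were lowest there as deposited, as were 60.1% of all expressed genes. No defining marker of either list was at 0. The part of these cells in the receptor levels was not tested. The T cell markers summed to 60.2 FPKM in S12 and 34.2 FPKM in S10 (with TMM factors S20 was lowest), and none was highest in S23. Without Cd4, which rat macrophages also express, the other 5 summed to 30.9 FPKM in S13, 26.2 FPKM in S10 and 13.6 FPKM in S20, the lowest. B cell markers had their lowest sum in S23, 28.9 FPKM, and 133 FPKM in S12.

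For the 5 members that varied most, the genes with the most similar profile were sought by the root mean square difference of median-centred log2(FPKM + 0.1) over the 6 libraries. Nearest to Il6r were Il16 (0.03), a leukocyte cytokine, the adhesion receptor Cd44 (0.04) and Pik3r6 (0.04). Nearest to Tnfrsf1b were Ripk3 (0.06), the kinase of necroptosis, the blood cell phosphatase Ptpn6 (0.07) and the interferon-induced GTPase gene Igtp (0.08). Il10ra lay closest to AABR07007758.1 (0.10), the phosphatase gene Dusp5 (0.10) and Map3k9 (0.11). Il6st lay closest to the heparan sulphate enzyme gene Ndst1 (0.08), LOC100912399 (0.11) and Dhdh (0.12). Il6 had no such close neighbour: its nearest genes were the chemokine Ccl9 at 0.54, AABR07034992.1 at 0.61 and the chemokine Cxcl1 at 0.64. The median distance over the 14485 genes ranked was 0.41 for Il6r, 0.46 for Tnfrsf1b, 0.58 for Il10ra, 0.85 for Il6st and 1.60 for Il6. All genes share the libraries and their differences in overall level, such as that of S10.

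Some other inflammatory ligands, named here after their values were seen, were also highest in S23, while others were not. Lif was highest in S12, Osm in S21, Lta in S10, Il23a and Tnf in S20, and Il24 was lowest in S23, at 0.0528 FPKM. Cxcl1, which attracts neutrophils, had 3.36 FPKM in S23 against a highest value of 0.734 FPKM in the other libraries, which is 4.57-fold. Ccl2, which attracts monocytes, had 6.61 FPKM in S23 and at most 1.67 FPKM elsewhere (3.96-fold). Il11, an IL-6 family ligand known in bone, had 38 counts (0.435 FPKM) in S23 and 2 to 6 counts in the others. Il1b had 28.3 FPKM in S23 and at most 22.5 FPKM elsewhere, a ratio of 1.26. With TMM factors the excess of S23 over the next library was 5.13-fold for Il6, 6.69-fold for Il11, 3.08-fold for Cxcl1, 3.51-fold for Ccl2 and 1.11-fold for Il1b.

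**Figure D5:**
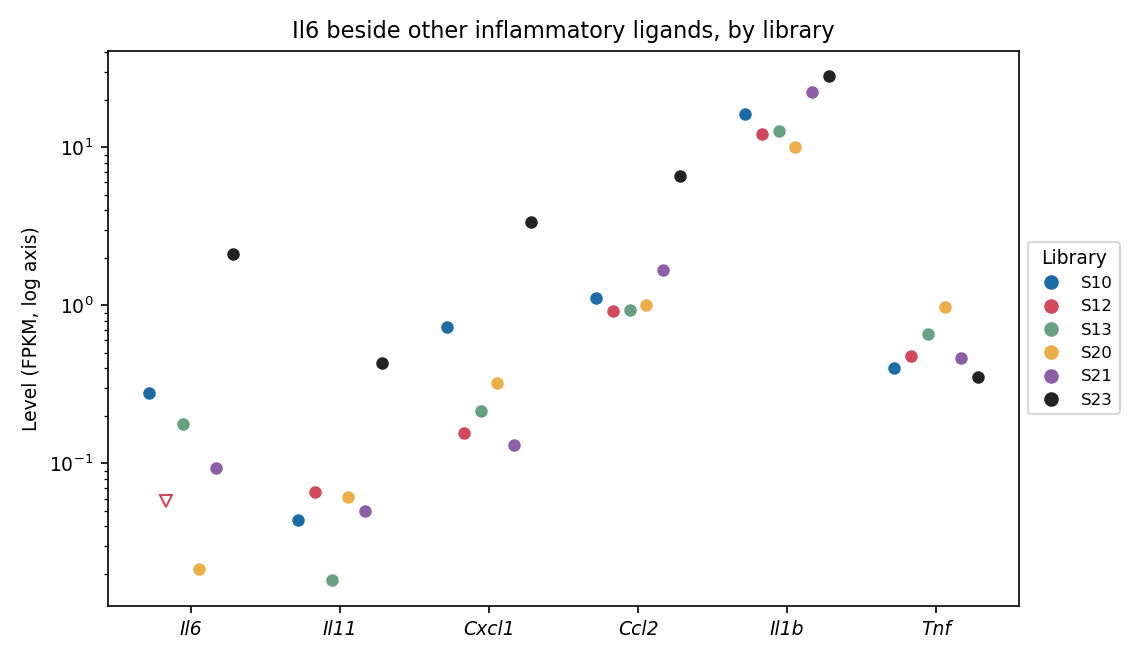
Level of 6 ligand genes in each library in FPKM on a log axis; the open triangle marks the level that 3 counts of Il6 would give in S12, which had none. S23 (black) stands apart for Il6 (2.11 FPKM), Il11, Cxcl1 and Ccl2, and is lowest for Tnf (0.351 FPKM).

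In the TNF signalling list 13 of 15 genes reached a median of 1 FPKM. Of all 22050 annotated genes 11625 did so, the share to set beside this list and those below. The NF-kappaB inhibitor gene Nfkbia had the highest median, 42.9 FPKM, followed by Ltb (31.2), a membrane ligand of the TNF family, its receptor Ltbr (23.6) and the NF-kappaB subunit Rela (20.6). Adam17, the protease that sheds TNF and its receptors, had a median of 14.9 FPKM. Lta, the neighbouring lymphotoxin gene, had at most 4 counts in any library. Of the 13 expressed genes 5 were highest in S23 (3 with TMM factors), and 4 had a range of at least 1. Over all expressed genes these shares were 24.0%, 14.0% and 36.6%.

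In the IL-6 family list 8 of 15 genes reached a median of 1 FPKM, led by the kinases and factor that relay gp130 signals. Jak1 had a median of 28.6 FPKM, Stat3 of 23.7, the sheddase gene Adam10 of 20.9 and Jak2 of 18.6. Osm, the oncostatin M ligand of myeloid cells, was the family ligand with the highest median, 3.12 FPKM, with 5.82 FPKM in S21 and 2.44 in S12. The receptor chains that pair with gp130 were low: Lifr had a median of 0.645 FPKM, Osmr 0.592 and Cntfr 0.113, while Il11ra1 had 2.38. Lifr and Osmr were lowest in S10, as Il6st was, with 0.106 and 0.148 FPKM, and highest in S20. Il11ra1 was instead highest in S10, at 3.30 FPKM, and Cntfr was lowest in S23, with 0 counts. Of all expressed genes, 60.1% were lowest in S10 in the deposited values. Socs3, the feedback inhibitor of gp130 signalling, ranged from 3.07 FPKM in S10 to 12.9 FPKM in S12. Stat3 alone of the 8 was highest in S23, as were 24.0% of all expressed genes.

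The IL-17 axis outside Il17ra was weakly expressed. Of 16 genes 5 reached a median of 1 FPKM: Nfkbiz (3.60 FPKM), an NF-kappaB cofactor, Il17b (3.52), Il17d (2.95), the adaptor Traf6 (2.15) and Traf3ip2 (1.13), which encodes the adaptor of IL-17 receptors. Il17rc, the partner of Il17ra in the IL-17A receptor, had a median of 0.940 FPKM, with 1.18 FPKM in S10 and 0.576 FPKM in S23, the reverse of the deposited Il17ra extremes. Il17f had 0 counts in all 6 libraries. None of the 5 expressed genes was highest in S23, against 24.0% of all expressed genes.

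In the IL-10 family list 2 of the 9 genes with a row reached a median of 1 FPKM. Il10rb, the partner of Il10ra, had a median of 16.4 FPKM, close to the 15.9 FPKM of Il10ra. Its deposited level was highest in S23 and lowest in S10 (19.1 and 13.3 FPKM), but with TMM factors it was highest in S10 (17.8 FPKM) and lowest in S20 (12.3 FPKM), with 17.3 FPKM in S23. Il20rb reached 4.64 FPKM in S23, with 1.98 FPKM as its median. Il20 and Il22 had 0 counts in all 6 libraries. Among 10 genes known to be induced by TNF, IL-6 or IL-17A, 7 reached a median of 1 FPKM. The highest medians were those of Lcn2 (898 FPKM, also a neutrophil granule gene), Mmp13 (157), Il1b (14.5) and Socs3 (8.01). Of these 7, 5 were highest in S23, as deposited and with TMM factors (24.0% and 14.0% of all expressed genes), and Csf3 had 0 counts in all 6 libraries. Over all 65 distinct pathway genes, 34 of the 64 with a row reached a median of 1 FPKM, as did 11625 of the 22050 annotated genes. Of the 34, 13 (38.2%) were highest in S23, against 24.0% of all expressed genes, and 16 (47.1%) had a range of at least 1, against 36.6%. With TMM factors these were 10 (29.4%), against 14.0%, and 14 (41.2%), against 29.6%. The lists were chosen with results known, and nothing is read from these differences.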

How the data were processed

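The table the authors deposited gives a whole-number count and an FPKM value per gene for each of 6 libraries, with the unit of each column named per the file headers. Which aligner and counter were used, and whether strand was used, the labels do not say. The submitters' processing notes name GRCm38 and mm10. Both are builds of the mouse, yet the IDs are those of rat genes in Ensembl, and no coordinates are therefore given for the counted genes. Of 30610 rows, 10 without values were dropped, and all value columns were used. The 10 genes and all lists were chosen with earlier results of these data known. Beyond the 10, the rule named the 4 highest genes of each list, those at 0 throughout, and the 3 nearest genes of each member that had a range of at least 1, or at least 20 counts and 4 times its median in its highest library. Nearest genes had a median of 0.1 FPKM or more. Other list genes (such as Ccr6, Il23r, Cd3e, Adam17, Lta, Osm, the partner chains of gp130, Traf3ip2, Il17rc, Il11, Lif, Il23a, Il24, Cxcl1 and Ccl2) and She were named after their values were seen. Some list genes are not reported here.

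No groups were given, so no test was run. Spread is on the log2(FPKM + 1) scale, which understates differences of low genes. Counting intervals are exact at 95% (Poisson for counts, Clopper-Pearson for ratios). For a count of 0 the limit was set at 3 counts, below the 3.69 at which its exact interval ends. Both cover counting error only. TMM factors came from edgeR 4.0.16 on 12901 rows. Alternatives were TMM, median-ratio and common-sum scaling, 20 length bins, a pseudocount of 0.1, other minimums, raw counts and leaving out each library. The scaling and ranking steps were tested on simulated data. Python 3.11.15 and R 4.3.3 were used.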

Additional observations from a re-analysis of the deposited data

How the results depend on the processing

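The number of members whose median reached 1 FPKM (6), the number of ligand and receptor combinations with the ligand lower (36 of 36, or 30 of 30 with a library left out), the number of libraries with Il6r above Il6st and the number of members highest in S23 (6) stayed within 1.5 times under every alternative run. Without S23, 4 members were highest in S12. For the ligand and receptor count and that of Il6r above Il6st, most alternatives could not change the outcome. Scaling a library by a single factor keeps its ratios, and leaving out a library only removes its own comparisons. Only raw counts and the counting intervals could have changed these counts. Length bins, which can change a ratio, were not run for them. The number of members with a range of at least 1 was 5 as deposited. It was 3 with TMM factors, 3 with median-ratio factors and 3 after removal of the length trend, and leaving out each library gave 2 (without S23) to 5, with 3 without S10. It was 7 with common-sum scaling, 7 with a pseudocount of 0.1 and 7 with a 1.5-fold range. The cause was not tested. Of all expressed genes, 36.6% had such a range as deposited, 29.6% with TMM factors and 51.4% with common-sum scaling. That share was not computed for the other settings, so their counts have nothing to be set beside. The 5 members as deposited were 4 receptor genes and Il6, whose median was under 1 FPKM. Of 180 values of single members under the alternatives, 15 moved by more than 1 SD over the libraries, all of them ranges. Il6 had a range of 1.64 as deposited and 0.35 without S23. That of Il6r was 0.66 and that of Il6st 1.17 without S10. No paired analysis was possible because the labels place no library in a group. No member had a second row, so the choice between rows could not be varied. The TATA letters, the median-ratio check of levels, the checks of Il6r over Il6st, the marker sums without Lyz2 or Cd4 and the TMM counts over the pathway genes were chosen after seeing the data. Depth limits what can be said of Il10, Il17a and, outside S23, Il6.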
